A study of Homo sapiens with 9 samples.

Results

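Transcripts of 10 members of the BCL2 family, the proteins that set whether mitochondria release the factors that start apoptosis, were followed across 9 RNA-seq libraries of HCT116 cells. The members were taken by Ensembl gene identifier, with the version dropped, and all 10 were found among the 15354 genes of the table. All 10 also passed the filter on low values that left 13893 genes for testing. They comprised the 3 pro-survival members BCL2, BCL2L1 and MCL1, the 2 effectors BAX and BAK1, and the 5 BH3-only members BBC3, PMAIP1, BID, BCL2L11 and BAD.

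HCT116 is an established human colorectal cancer line. The cells were transfected in suspension, with a lipid reagent (RNAiMAX) and an siRNA dose of 25 nM on the labels. The study's methods give a higher dose for siRNAs in general, and which applies here was not settled. As far as the labels say, no further allele or drug was applied in any group. Control cells received a commercial non-targeting siRNA, and the other groups received siRNA A or siRNA B against the long non-coding RNA SNHG5, with 3 libraries per group. Transcripts with a poly-A tail were sequenced from 1 end for 50 bases, and library totals ran from 15566530 to 23277549 reads. The study used 1 cell line, and which of its named siRNAs is A and which is B was not given on the labels. The methods call the 3 libraries of a group biological replicates.

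The targeted transcript went against the labels of the knock-down libraries. The paper, by contrast, reports reduced SNHG5 in HCT116 cells with each of its siRNAs, measured by qRT-PCR. SNHG5 stood at 31.3, 22.1 and 25.9 TMM-scaled CPM in control replicates 1 to 3, at 71.5, 58.8 and 67.3 with siRNA A, and at 46.2, 50.3 and 46.1 with siRNA B. CPM are reads scaled to a common library total, here after a correction of library composition by the trimmed mean of M values (TMM). All 6 libraries labelled as knock-downs were above all 3 controls, and SNHG5 rose by 1.29 on the log2 scale with siRNA A (limma, adjusted p = 1.86e-05) and by 0.83 (adjusted p = 5.90e-04) with siRNA B. Every direction below therefore compares groups as labelled, and not measured levels of knock-down. Both comparisons with control use the same 3 control libraries, so their values are given side by side and are not independent of each other.

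The epithelial origin of the line was seen in all libraries: 7 of 7 epithelial marker genes were in the table, with summed levels of 2125 to 2229 CPM in control, 2899 to 3557 CPM with siRNA A and 2471 to 2533 CPM with siRNA B. The keratins KRT8, KRT18 and KRT19 made up most of these sums. EPCAM fell with siRNA A by 0.55 (adjusted p = 0.00121) on the TMM scale. As deposited, without that correction, EPCAM was at 186 to 214 CPM in control and 94.6 to 116 CPM with siRNA A. CDH1 did not pass with siRNA A (0.09, adjusted p = 0.582) or siRNA B (−0.27, adjusted p = 0.149). Of 6 markers of other cell types, only COL1A1 was in the table, at 18.3 to 19.5, 9.44 to 12.3 and 8.55 to 9.40 CPM in the same order. In bulk RNA, fewer cells carrying a transcript and less of it per cell cannot be told apart. The part of these shifts in the results below was not tested.

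The BCL2 family works through binding between its own members. Pro-survival members hold the effectors BAX and BAK1 in check, and once free the effectors form pores in the mitochondrial outer membrane through which cytochrome c leaves. BH3-only members are the sensors: they bind and occupy the pro-survival members, and some also engage the effectors directly. In colorectal cells BCL2L1, which encodes BCL-XL, and MCL1 are well known guards of survival, and the BH3-only members PMAIP1 (NOXA) and BBC3 (PUMA) are controlled mainly through their transcription.

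The upstream windows of 5 members are shown because these members changed in both comparisons with control: BBC3 and PMAIP1 were higher in both, BAK1 and BAD lower in both, and BAX opposite between the siRNAs. Each window holds the 250 bases before the annotated transcription start, on the strand of the gene, from RefSeq on GRCh38.p14. The RefSeq table held a window for 9 of the 10 members, MCL1 excepted. The windows are chr18:59899746-59899995 on the plus strand for PMAIP1, chr19:47232668-47232917 on the minus strand for BBC3, chr19:48954625-48954874 on the plus strand for BAX, chr6:33580277-33580526 on the minus strand for BAK1 and chr11:64284705-64284954 on the minus strand for BAD. BAD has 2 starts in the RefSeq table, and the more upstream one was used. Capitals mark matches on either strand to a GC box (GGGCGG), the promoter motif CCAAT, which is named by its own letters, a cAMP response motif (TGACG), an E-box (CACGTG) or a STAT site (TTCNNNGAA).
PMAIP1: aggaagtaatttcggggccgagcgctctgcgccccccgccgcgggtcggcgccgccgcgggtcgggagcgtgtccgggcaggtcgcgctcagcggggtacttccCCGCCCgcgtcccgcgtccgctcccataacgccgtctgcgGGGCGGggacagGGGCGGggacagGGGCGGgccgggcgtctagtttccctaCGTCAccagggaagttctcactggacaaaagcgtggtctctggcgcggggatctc
BBC3: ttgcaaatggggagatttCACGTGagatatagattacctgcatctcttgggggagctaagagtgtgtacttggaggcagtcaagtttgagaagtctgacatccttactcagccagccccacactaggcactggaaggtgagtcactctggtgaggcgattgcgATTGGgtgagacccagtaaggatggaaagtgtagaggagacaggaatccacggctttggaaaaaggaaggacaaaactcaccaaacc
BAX: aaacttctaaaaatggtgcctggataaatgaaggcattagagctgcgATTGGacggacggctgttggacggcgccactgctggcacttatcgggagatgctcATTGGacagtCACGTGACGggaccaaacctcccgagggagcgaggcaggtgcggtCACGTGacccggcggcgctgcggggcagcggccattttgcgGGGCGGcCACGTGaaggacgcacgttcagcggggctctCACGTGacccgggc
BAK1: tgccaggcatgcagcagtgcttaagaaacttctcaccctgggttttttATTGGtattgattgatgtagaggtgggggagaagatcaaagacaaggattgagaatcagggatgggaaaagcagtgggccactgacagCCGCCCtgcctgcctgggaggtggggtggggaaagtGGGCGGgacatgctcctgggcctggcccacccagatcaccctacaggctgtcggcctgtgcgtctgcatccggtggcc
BAD: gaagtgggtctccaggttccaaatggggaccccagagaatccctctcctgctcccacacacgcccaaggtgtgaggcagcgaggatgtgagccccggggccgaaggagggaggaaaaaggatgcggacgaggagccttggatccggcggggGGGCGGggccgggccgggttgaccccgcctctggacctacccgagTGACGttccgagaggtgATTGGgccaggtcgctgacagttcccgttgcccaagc

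The windows differed in what they held. That of PMAIP1 had 4 GC boxes and 1 cAMP response motif, and that of BBC3 had 1 CCAAT box and 1 E-box. The BAX window held 4 E-boxes, 2 CCAAT boxes, 1 GC box and 1 cAMP response motif, which overlaps the E-box that starts 138 bases before the start. The BAK1 window held 2 GC boxes and 1 CCAAT box. The BAD window held 1 GC box, 1 CCAAT box and 1 cAMP response motif. Among all 35116 windows of this length, 42.6% held a GC box, 32.0% a CCAAT box, 21.2% a cAMP response motif, 6.34% an E-box and 6.57% a STAT site. A match describes letters in a window and is not a measured binding site.

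Of the 10 members, 8 passed the test between the libraries labelled siRNA A and control: MCL1, BBC3 and PMAIP1 rose, and BCL2, BAX, BAK1, BCL2L11 and BAD fell. Of all genes tested, 51.4% were called in this comparison, 23.9% higher and 27.6% lower. With siRNA B, 6 of the 10 passed: BAX, BBC3 and PMAIP1 rose, and BCL2L1, BAK1 and BAD fell, against 34% of all genes, 15.6% higher and 18.3% lower. On library totals alone, without the TMM correction, 2 of the 10 were higher and 7 lower with siRNA A, and 2 higher and 5 lower with siRNA B. The median over all genes was −0.34 and −0.18 on that scale, so genes in general lean lower there. BBC3 and PMAIP1 rose in both comparisons, as 10.2% of all genes did, and BAK1 and BAD fell in both, as 11.7% did. The median log2 fold change over the 10 members was −0.25 with siRNA A and −0.28 with siRNA B, beside −0.02 and 0.0043 over all genes. By role, both effectors fell with siRNA A, while with siRNA B BAX rose and BAK1 fell. The BH3-only members held called rises and called falls in both comparisons. Among pro-survival members, MCL1 rose and BCL2 fell with siRNA A, and with siRNA B only the fall of BCL2L1 was called.

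**Figure D1:**
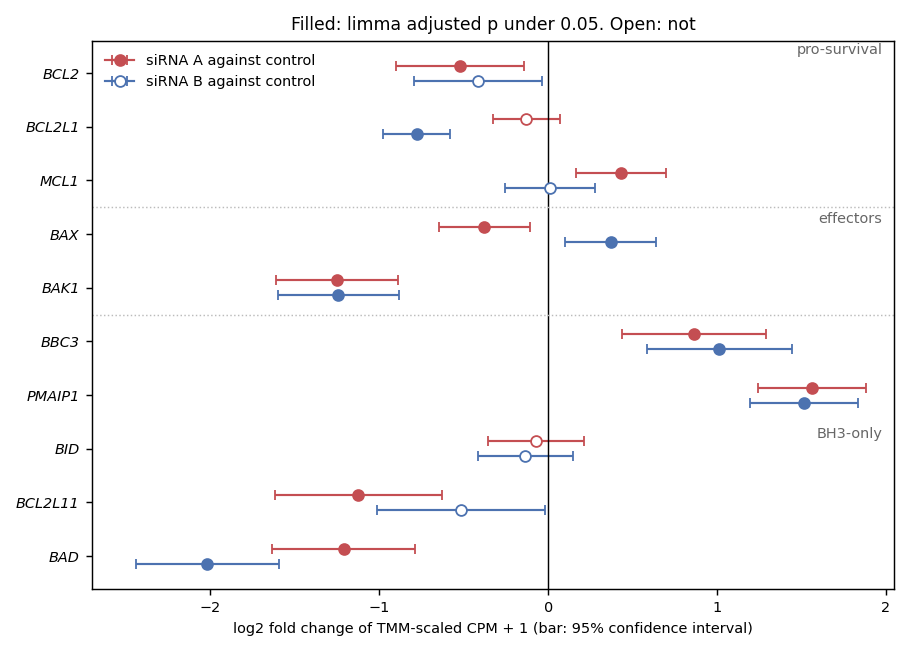
Log2 fold change of each member in the libraries labelled siRNA A (red) and siRNA B (blue) against control, with the 95% confidence interval of the limma fit as bars; the dotted lines separate the 3 roles. PMAIP1 and BBC3 lie to the right of 0 and BAK1 and BAD to the left in both comparisons, while the BAX points lie on opposite sides.

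BCL2L1, on chromosome 20 (GRCh37 30252255 to 30311792, minus strand, 3 exons in the canonical transcript), encodes the pro-survival protein BCL-XL and was the family's most abundant transcript per length in the control. It stood at 265, 285 and 257 TMM-scaled CPM in control replicates 1 to 3, at 253, 250.2 and 234 with siRNA A, and at 165, 150.5 and 154 with siRNA B. The siRNA B libraries were far below all others, and the siRNA A libraries lay just below the control range without overlapping it. BCL2L1 fell by 0.78 with siRNA B (log2, SE 0.091, adjusted p = 9.16e-05 in limma). With siRNA A the log2 fold change was −0.13 (95% confidence interval −0.33 to 0.07, adjusted p = 0.254), which did not pass. Tested directly, BCL2L1 was higher with siRNA A than with siRNA B (log2 difference 0.65, SE 0.091, adjusted p = 2.92e-04). On library totals the value for siRNA A was −0.50 (adjusted p = 0.00195) and passed.

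MCL1, on chromosome 1 (150533371 to 150552214, minus strand, 3 exons), encodes a short-lived pro-survival protein and is bound selectively by NOXA. Its levels were 176, 182 and 210.4 TMM-scaled CPM in control replicates 1 to 3, 259.7, 218 and 290.4 with siRNA A and 202, 176 and 193 with siRNA B. The siRNA A libraries were all above the controls, the nearest by a narrow margin, and the siRNA B libraries lay within the control range. MCL1 rose with siRNA A (log2 fold change 0.43, SE 0.12, adjusted p = 0.0115) and not detectably with siRNA B (0.010, 95% confidence interval −0.26 to 0.28, adjusted p = 0.958). It was higher with siRNA A than with siRNA B by 0.42 (adjusted p = 0.0185). The rise rests on the TMM correction: as deposited, the CPM were 200 to 232 in control and 186 to 266 with siRNA A, and on library totals the log2 fold change was 0.06 (adjusted p = 0.722) against control and 0.26 (adjusted p = 0.153) against siRNA B. It also rests on siRNA A replicate 3, without which it was 0.33 (adjusted p = 0.0520) against control and 0.32 (adjusted p = 0.0756) against siRNA B, where leaving out siRNA A replicate 1 (0.40, adjusted p = 0.0531) or siRNA B replicate 2 (0.36, adjusted p = 0.0508) ended the call too.

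BCL2 itself, on chromosome 18 (60790579 to 60987361, minus strand, 3 exons), was the scarcest member. It had 42 to 70 reads per control library, 16 to 25 with siRNA A and 25 to 31 with siRNA B, so counting alone gives errors of 12.0% to 25.0% per library. Its level was 2.11, 3.04 and 1.83 TMM-scaled CPM in control replicates 1 to 3, 1.33, 1.21 and 1.34 with siRNA A and 1.12, 2.001 and 1.36 with siRNA B. All siRNA A libraries were below the controls, while siRNA B replicate 2 lay inside the control range. BCL2 fell with siRNA A by 0.52 on the log2 scale (SE 0.17, adjusted p = 0.0247), a value that was −0.84 in edgeR (adjusted p = 0.0257), and with siRNA B the value was −0.42 (95% confidence interval −0.79 to −0.04), whose adjusted p of 0.0837 did not pass. Leaving out control replicate 2 or any one siRNA A library ended the call for siRNA A: the values were −0.38 (adjusted p = 0.109) without the control and −0.54, −0.50 and −0.54 (adjusted p = 0.0516, 0.0621 and 0.0526) without siRNA A replicates 1, 2 and 3. Without siRNA B replicate 2, the value for siRNA B was −0.56 (adjusted p = 0.0305).

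**Figure D2:**
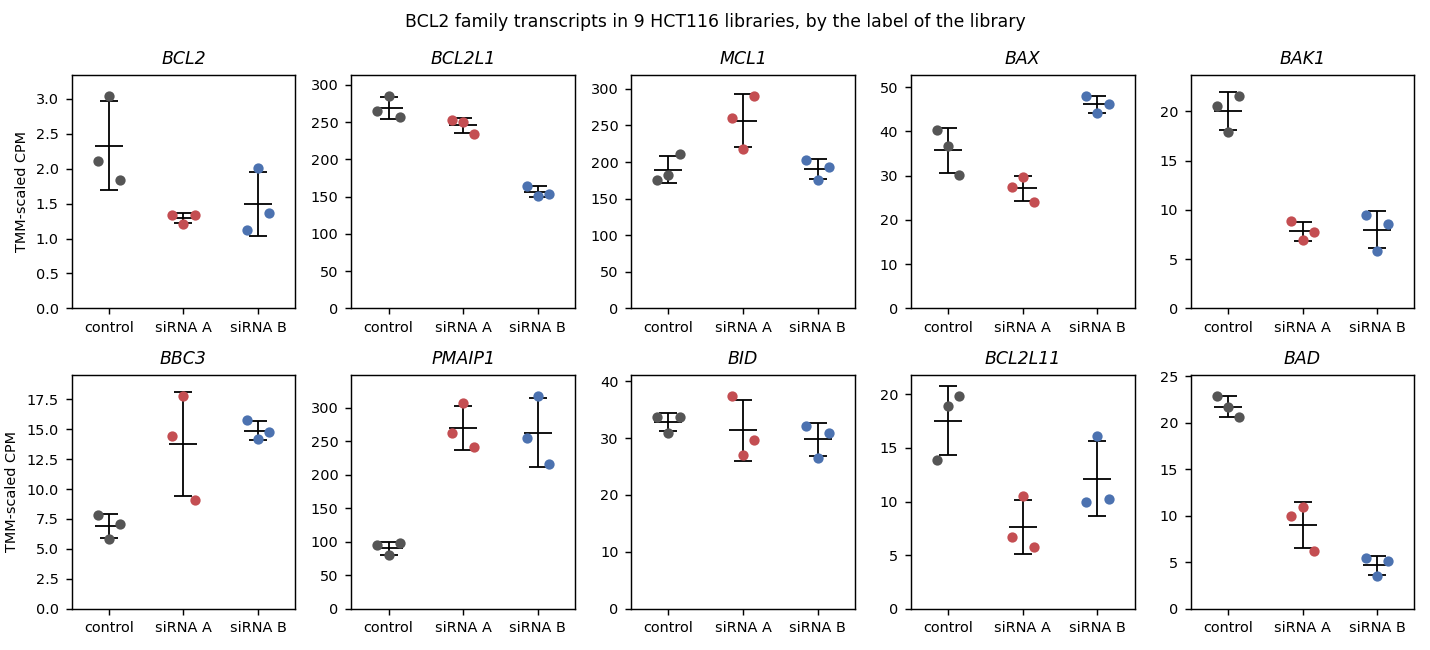
TMM-scaled CPM of each member (vertical axes, each from 0) in the 3 control (grey), 3 siRNA A (red) and 3 siRNA B (blue) libraries; points are libraries, from left to right replicates 1 to 3, and the black marks are the mean ± SD. PMAIP1 lies between 79.7 and 97.5 in control and from 216 to 318 in the other 6 libraries, and BAX is lowest with siRNA A and highest with siRNA B.

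BAX, on chromosome 19 (49458072 to 49465055, plus strand, 6 exons), is the pore-forming effector that moves from the cytosol to mitochondria on activation, and its upstream window is the one above with 4 E-boxes. It was the only member called in opposite directions. The share of all genes called in opposite directions was not computed, so this count has no background to be read against. The levels of BAX were 40.3, 36.7 and 30.1 TMM-scaled CPM in control replicates 1 to 3, 27.5, 29.8 and 24.1 with siRNA A and 48.0, 44.1 and 46.2 with siRNA B. On the TMM scale the 3 groups did not overlap, although siRNA A replicate 2 lay close to control replicate 3. In CPM as deposited, control (33.3 to 45.8) and siRNA B (41.8 to 49.7) overlapped. BAX fell by 0.38 with siRNA A (SE 0.12, adjusted p = 0.0236), rose by 0.37 with siRNA B (adjusted p = 0.0379), and the direct difference, siRNA A minus siRNA B, was −0.75 (adjusted p = 8.33e-04). That difference passed under every alternative run, but each comparison with control rests on single libraries and on the scaling. On library totals the fall with siRNA A was larger (−0.74, adjusted p = 5.39e-04). It did not pass without control replicate 1 (−0.28, adjusted p = 0.0953), control replicate 2 (−0.36, adjusted p = 0.0673) or siRNA A replicate 3 (−0.30, adjusted p = 0.0927). The rise with siRNA B did not pass on library totals (0.16, adjusted p = 0.383), or without control replicates 2 (0.38, adjusted p = 0.0825) or 3 (0.26, adjusted p = 0.158), siRNA A replicate 1 (0.37, adjusted p = 0.0509) or siRNA B replicates 1 (0.33, adjusted p = 0.123) or 3 (0.37, adjusted p = 0.0814).

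BAK1, on chromosome 6 (33540324 to 33548070, minus strand, 6 exons), is the effector that resides in the mitochondrial outer membrane. It stood at 20.6, 17.9 and 21.6 TMM-scaled CPM in control replicates 1 to 3, at 8.88, 6.95 and 7.72 with siRNA A and at 9.53, 5.87 and 8.59 with siRNA B. All 6 siRNA libraries were far below all controls and the siRNA groups overlapped each other. BAK1 fell by 1.25 (SE 0.16, adjusted p = 1.02e-04) with siRNA A and by 1.24 (adjusted p = 2.21e-04) with siRNA B. Between the siRNAs it differed by −0.0065 (95% confidence interval −0.37 to 0.35, adjusted p = 0.980). The effectors thus split: BAK1 was lower in both siRNA groups, and BAX lower in 1 and higher in the other.

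PMAIP1, on chromosome 18 (57567228 to 57571537, plus strand, 2 exons), encodes NOXA, a small BH3-only protein that binds MCL1, and had the largest rise of the family in both comparisons. It stood at 94.7, 79.7 and 97.5 TMM-scaled CPM in control replicates 1 to 3, at 262, 307 and 241 with siRNA A and at 256, 318 and 216 with siRNA B. All siRNA libraries were far above all control libraries. The log2 fold change was 1.56 (SE 0.15, adjusted p = 1.19e-05), a fold of 2.95, with siRNA A and 1.51 (adjusted p = 3.07e-05), a fold of 2.86, with siRNA B. Between the siRNAs the gap was 0.05 (95% confidence interval −0.27 to 0.37). No other gene overlaps PMAIP1 in the annotation.

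BBC3, on chromosome 19 (47724079 to 47736023, minus strand, 4 exons), encodes PUMA, which binds all pro-survival members. Its levels were 7.82, 5.82 and 7.08 TMM-scaled CPM in control replicates 1 to 3, 14.4, 17.8 and 9.11 with siRNA A and 15.7, 14.1 and 14.7 with siRNA B. On the TMM scale all siRNA libraries were above all controls, with siRNA A replicate 3 the nearest to them. In CPM as deposited, siRNA A replicate 3 (8.33) lay below control replicate 1 (8.89). BBC3 rose by 0.86 (SE 0.20, adjusted p = 0.00335) with siRNA A and by 1.01 (adjusted p = 0.00227) with siRNA B. On library totals the value for siRNA A was 0.53 (adjusted p = 0.0264). Between the siRNAs the gap was −0.15 (95% confidence interval −0.58 to 0.28).

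BAD, on chromosome 11 (64037302 to 64052176, minus strand, 4 exons), encodes a BH3-only protein that survival kinases phosphorylate and 14-3-3 proteins then hold away from BCL-XL. It had the largest fall of the family with siRNA B. Its levels were 22.9, 21.7 and 20.6 TMM-scaled CPM in control replicates 1 to 3, 9.94, 10.96 and 6.22 with siRNA A and 5.41, 3.49 and 5.13 with siRNA B. The 3 groups did not overlap, in the order control, siRNA A, siRNA B. BAD fell by 1.21 (SE 0.19, adjusted p = 3.52e-04) with siRNA A and by 2.02 (adjusted p = 2.77e-05) with siRNA B, and siRNA A exceeded siRNA B by 0.81 (adjusted p = 0.00709). GPR137 overlaps BAD on the other strand. Its CPM as deposited, without the TMM correction, were 20.0 to 21.7 in control, 12.9 to 15.9 with siRNA A and 8.32 to 13.0 with siRNA B. On the TMM scale its log2 fold changes were −0.20 (adjusted p = 0.288) and −0.64 (adjusted p = 0.00712). The use of strand in counting was not stated, so reads where the genes overlap cannot be told apart.

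BCL2L11, on chromosome 2 (111876955 to 111926021, plus strand, 4 exons), encodes BIM, a BH3-only protein that binds all pro-survival members and can activate the effectors. Its levels were 13.9, 18.9 and 19.8 TMM-scaled CPM in control replicates 1 to 3, 6.70, 10.5 and 5.73 with siRNA A and 9.97, 16.1 and 10.2 with siRNA B. The siRNA A libraries lay below all controls, and siRNA B replicate 2 lay within the control range. BCL2L11 fell by 1.12 with siRNA A (SE 0.23, adjusted p = 0.00160). With siRNA B the value was −0.52 (95% confidence interval −1.01 to −0.02), whose adjusted p of 0.0989 did not pass; on library totals it was −0.72 (adjusted p = 0.0159), and without siRNA B replicate 2 it was −0.73 (adjusted p = 0.0266). Between the siRNAs the gap was −0.61 (95% confidence interval −1.10 to −0.11, adjusted p = 0.0537), and it passed without control replicate 1 (−0.60, adjusted p = 0.0492) or siRNA A replicate 2 (−0.83, adjusted p = 0.0146). MIR4435-2HG overlaps BCL2L11 on the other strand. As deposited, it was at 9.58 to 12.3, 6.62 to 10.1 and 14.6 to 18.3 CPM in control, siRNA A and siRNA B. On the TMM scale its log2 fold changes were 0.05 (adjusted p = 0.821) and 0.81 (adjusted p = 0.00189).

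BID, on chromosome 22 (18216904 to 18257536, minus strand, 6 exons), encodes the BH3-only protein that caspase-8 cleaves to link death receptors to mitochondria. Its levels were 33.7, 30.9 and 33.7 TMM-scaled CPM in control replicates 1 to 3, 37.4, 27.1 and 29.6 with siRNA A and 32.1, 26.5 and 30.8 with siRNA B. All 3 groups overlapped on this scale. In CPM as deposited, control (36.9 to 38.3) lay above siRNA A (23.0 to 33.4) and siRNA B (25.2 to 33.2). BID was the only member that passed in none of the comparisons: the log2 fold change was −0.07 (95% confidence interval −0.36 to 0.21) with siRNA A and −0.14 (−0.42 to 0.15) with siRNA B. On library totals the value for siRNA A was −0.43 (adjusted p = 0.0230) and passed.

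On the TMM scale, the groups did not overlap for 9 of the 10 members with siRNA A, 3 higher and 6 lower. There, 59.5% of all genes did not overlap (27.6% higher, 31.9% lower). With siRNA B it was 6 of 10, 3 in each direction, where 47.6% of all genes did not overlap (22.5% higher, 25.1% lower). These counts depend on the scaling. In CPM as deposited, MCL1 and BBC3 overlapped with siRNA A, and BID was lower without overlap. With siRNA B, BAX overlapped, and BCL2, BID and BCL2L11 were lower without overlap. Shares of all genes on that scale were not computed. Tested against each other, the siRNAs differed in 4 of the 10 members, against 37.1% of all genes: BCL2L1, MCL1 and BAD were higher with siRNA A, and BAX with siRNA B. A share of 4 in 10 is near that background. In the same 4 members the siRNA groups did not overlap on the TMM scale. The share of all genes was 47.6%, 22.6% higher and 25% lower with siRNA A. In CPM as deposited, the siRNA groups overlapped for MCL1 and did not overlap for BCL2L11.

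The remaining overlaps with annotated genes were BCL2L1 with ABALON and BCL2L1-AS1, BAK1 with GGNBP1, BBC3 with MIR3191, BID with MIR3198-1, BCL2 with snoU13 and others, and MCL1 with ADAMTSL4 and others. ADAMTSL4 was at or below 1.502 CPM in all libraries, where MCL1 was at 167 CPM or more. A row named snoU13 stood at 1.61 to 3.94 CPM in the 9 libraries, near the level of BCL2. It was matched by name only, and whether it is the copy that overlaps BCL2 was not checked. A share of reads between it and BCL2 was thus not tested.

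Levels of different genes were compared only after division by the length of the canonical transcript. Per kb, BCL2L1 led in every control library, with 104.6 ± 5.62 TMM-scaled CPM per kb (SD, n = 3). MCL1 (47.9 ± 4.70), PMAIP1 (47.7 ± 5.05) and BAX (44.9 ± 6.46) followed, with overlapping ranges that do not set an order among them. Then came BAD (23.4 ± 1.22), BID (15.05 ± 0.728) and BAK1 (9.22 ± 0.878), each apart from its neighbours. BBC3 (3.74 ± 0.547) and BCL2L11 (3.44 ± 0.630) overlapped, and BCL2 came last at 0.339 ± 0.0917. In all 6 siRNA libraries PMAIP1 held rank 1 of the 10 members and BCL2L1 rank 2. PMAIP1 reached 142 ± 17.6 per kb with siRNA A and 138 ± 27.0 with siRNA B, where BCL2L1 stood at 95.6 ± 3.94 and 60.8 ± 2.88. BAD went from rank 5 in each control library to rank 6 in each siRNA A library and rank 7 in each siRNA B library, and BBC3 from rank 8 or 9 to ranks 7 and 6. BAX was above MCL1 in each siRNA B library, at 58.0 ± 2.48 per kb against 48.2 ± 3.42, as it was in control replicates 1 and 2, and below it in control replicate 3 and in each siRNA A library. Ranks within a library do not depend on the scaling between libraries, but they rest on 1 transcript length per gene.

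**Figure D3:**
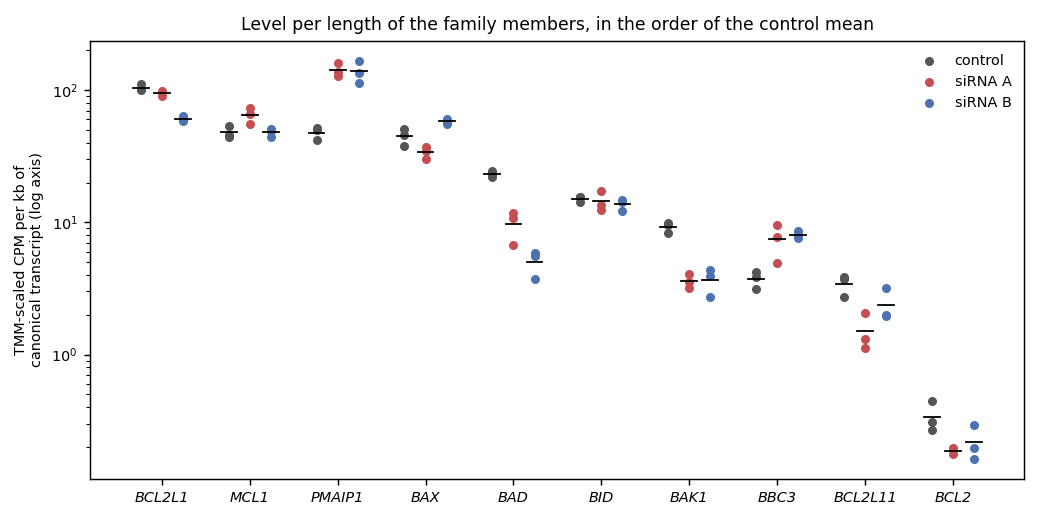
TMM-scaled CPM per kb of canonical transcript (log axis) of each member in control (grey), siRNA A (red) and siRNA B (blue) libraries; points are libraries and black lines group means. BCL2L1 is highest in the control libraries and PMAIP1 is highest in the siRNA libraries, while BCL2 is lowest in all.

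Pro-survival and pro-death transcripts were then set against each other within each library, as ratios of their reads, which no scaling between libraries can change. These ratios use the same reads as the tests above and are given as a description. The MCL1 to PMAIP1 ratio was 1.85 to 2.28 in control, 0.712 to 1.203 with siRNA A and 0.553 to 0.894 with siRNA B, a mean of 0.453 and 0.350 times the control. All siRNA libraries thus had a lower ratio than all controls. Per kb, the transcripts of MCL1 and its partner NOXA were level in control (47.9 and 47.7) and PMAIP1 stood above MCL1 with siRNA A (142 and 64.9) and siRNA B (138 and 48.2). The MCL1 to BAK1 ratio moved the other way, from 8.53 to 10.2 in control to 29.3 to 37.6 with siRNA A and 21.2 to 29.9 with siRNA B. The BCL2L1 to BAD ratio also rose, from 11.6 to 13.1 in control to 22.8 to 37.7 with siRNA A and 30.1 to 43.2 with siRNA B. For these 3 pairs both siRNA groups lay on the same side of the control, without overlap.

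The BCL2L1 to BAX ratio separated the siRNAs. It was 6.57 to 8.54 in control, 8.40 to 9.72 with siRNA A and 3.34 to 3.43 with siRNA B. The siRNA A libraries overlapped the control range, and the siRNA B libraries, which lay within a narrow band, were at 0.447 times the control mean. The BCL2 to BCL2L11 ratio, 0.0925 to 0.161 in control, 0.115 to 0.234 with siRNA A and 0.112 to 0.133 with siRNA B, overlapped in all groups. The balance between survival and death transcripts thus had no single direction: it depended on the pair.

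**Figure D4:**
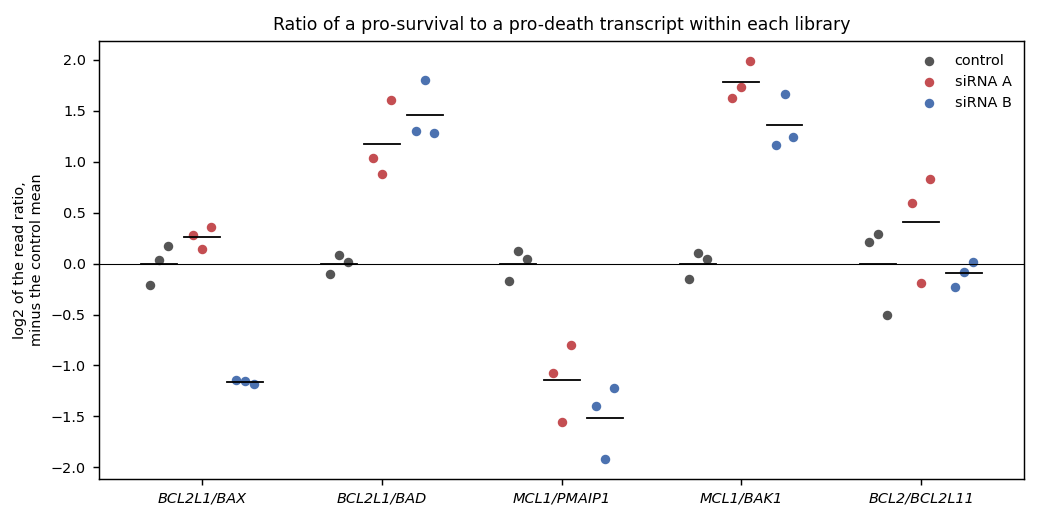
Log2 of the read ratio of a pro-survival to a pro-death member in each library, minus the mean of the control libraries; points are libraries (grey control, red siRNA A, blue siRNA B) and black lines are group means. Ratios to BAD and BAK1 lie above 0 and the ratio of MCL1 to PMAIP1 below 0 in all siRNA libraries. The ratio of BCL2L1 to BAX lies below 0 in all siRNA B libraries and in no siRNA A library.

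Of 14 other relatives of the family, 10 passed the filter on low values. With siRNA A 3 rose and 4 fell, and with siRNA B 2 rose and 2 fell, with medians of −0.09 and −0.23. Over all genes tested, 23.9% were called higher and 27.6% lower with siRNA A, and 15.6% and 18.3% with siRNA B. The counts of this list and of those below stand beside these shares. On library totals, where all-gene medians were −0.34 and −0.18, 1 rose and 5 fell with siRNA A, and 2 rose and 5 fell with siRNA B. BNIP3L (NIX), a mitochondrial receptor for autophagy, rose in both, by 1.002 (adjusted p = 1.13e-04) and 1.07 (adjusted p = 1.55e-04). CPM as deposited lack the TMM correction that the log2 fold changes include. For BNIP3L they were 33.4 to 45.8 in control, 62.7 to 66.3 with siRNA A and 71.6 to 77.96 with siRNA B. BIK, a BH3-only protein of the endoplasmic reticulum, fell with siRNA A by 0.68 (adjusted p = 0.0108). BMF, a BH3-only protein that binds the dynein light chain, rose with siRNA B by 0.85 (adjusted p = 0.00965). As deposited, BMF was at 0.880 to 1.25 CPM in control and 1.89 to 3.30 CPM with siRNA B. Between the siRNAs, BCL2L12 was higher with siRNA A by 1.07 (adjusted p = 0.00175), and BCL2L13 was higher with siRNA B, at −0.74 for siRNA A minus siRNA B (adjusted p = 4.72e-04). Against control, BCL2L12 rose by 0.62 (adjusted p = 0.0221, 0.317 on library totals) and BCL2L13 fell by 0.58 (adjusted p = 0.00117) with siRNA A.

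Downstream of the effectors, transcripts of the apoptosome and the executioner caspases were called more often with siRNA A than with siRNA B. So were all genes, at 51.4% and 34%. With siRNA A 4 of 6 fell and 1 rose, with a median of −0.48. With siRNA B 2 of 6 rose in limma, with a median of 0.20, and no gene of the list was called lower (2 at an unadjusted p under 0.05, 0 in edgeR and 1 in DESeq2). On library totals 2 of the 6 were lower with siRNA B and the median was −0.0026, so the direction there depends on the scaling. Tested directly, 4 of the 6 were lower with siRNA A than with siRNA B and 1 was higher, where 19.5% of all genes were lower and 17.6% higher. CYCS, which encodes cytochrome c itself, rose by 1.14 with siRNA A (adjusted p = 1.25e-05) and by 0.32 with siRNA B (adjusted p = 0.0365). CASP9, the initiator caspase of the apoptosome, fell by 1.14 with siRNA A (adjusted p = 1.15e-04). On library totals CYCS did not pass with siRNA B (0.11, adjusted p = 0.518). APAF1, the scaffold of the apoptosome, was at 9.31 to 10.5 CPM with siRNA A and 22.8 to 29.3 CPM with siRNA B, as deposited. The log2 difference on the TMM scale was −1.16 (adjusted p = 9.92e-05), and APAF1 fell against control with siRNA A (−0.79, adjusted p = 5.44e-04).

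Inhibitors of apoptosis and their antagonists had 3 of 7 higher and 1 lower with siRNA A, and 1 higher and 1 lower with siRNA B. The shares of all genes called were 51.4% and 34%. On library totals 1 was higher and 1 lower with siRNA A. BIRC3, a ubiquitin ligase of NF-kB signalling, rose with siRNA A by 1.94 (adjusted p = 1.12e-04) and exceeded siRNA B by 1.93 (adjusted p = 2.25e-04). As deposited, without the TMM correction, BIRC3 was at 12.2 to 14.9 CPM in control and 36.2 to 62.0 CPM with siRNA A. BIRC5 (survivin), a protein of dividing cells, fell with both, by 0.81 (adjusted p = 8.14e-04) and 1.31 (adjusted p = 7.52e-05). XIAP, the direct caspase inhibitor, rose with siRNA B by 0.997 (adjusted p = 1.77e-04) and with siRNA A by 0.53 (adjusted p = 0.00500), where it did not pass on library totals (0.17, adjusted p = 0.335). The 3 genes named here thus differ in role and in direction.

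In the death receptor arm, which reaches the family through BID, 2 of 8 genes rose and 5 fell with siRNA A, and 2 rose and 1 fell with siRNA B. Of all genes, 51.4% and 34% were called in these comparisons. The medians of the list were −0.50 and 0.17 (−0.76 and −0.03 on library totals). The TRAIL receptor TNFRSF10B rose with both, by 0.80 (adjusted p = 3.08e-05) and 0.70 (adjusted p = 1.54e-04), and TNFRSF10A rose with siRNA A by 0.88 (adjusted p = 1.88e-04). FAS, the receptor of FAS ligand, rose with siRNA B by 0.65 (adjusted p = 0.00329) and was lower with siRNA A than with siRNA B by a log2 difference of −1.22 (adjusted p = 6.98e-05). FADD, the adaptor of these receptors, was likewise lower with siRNA A than with siRNA B (−0.93, adjusted p = 1.41e-04). Against control, both FAS (−0.57, adjusted p = 0.00418) and FADD (−0.62, adjusted p = 9.40e-04) fell with siRNA A.

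At the mitochondrial outer membrane and among released factors, 2 of 7 rose and 2 fell with siRNA A, and 2 rose in limma with siRNA B, where 1 had a lower value at an unadjusted p under 0.05. Limma called 51.4% and 34% of all genes. On library totals 1 was higher and 3 were lower with siRNA B. VDAC2, a channel that binds BAK, rose with both, by 1.02 (adjusted p = 1.91e-05) and 0.67 (adjusted p = 5.28e-04), and VDAC1 rose with siRNA A by 0.94 (adjusted p = 2.85e-05). AIFM1, the apoptosis-inducing factor, rose with siRNA B by 0.27 (adjusted p = 0.0401), which did not pass on library totals (0.06, adjusted p = 0.705). Of 5 tested genes that set the turnover of the MCL1 protein, the deubiquitinase USP9X rose by 0.65 (adjusted p = 0.00997) and the ubiquitin ligase subunit FBXW7 fell by 0.38 (adjusted p = 0.0235) with siRNA A. The value of USP9X did not pass on library totals (0.28, adjusted p = 0.189). With siRNA B 0 of the 5 passed in limma, with 1 at an unadjusted p under 0.05, 0 passed in edgeR and 1 in DESeq2.

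Among 11 transcription factors that act on family promoters, 5 rose and 4 fell with siRNA A, and 3 rose and 3 fell with siRNA B. All-gene shares called were 51.4% and 34%. On library totals 1 rose and 4 fell with siRNA A, and 3 rose and 4 fell with siRNA B. E2F1, a factor of the cell cycle, fell by 1.67 with siRNA A (adjusted p = 2.39e-05) and by 1.09 with siRNA B (adjusted p = 7.20e-04). DDIT3 (CHOP), a factor of the stress responses, rose with siRNA B by 1.58 (adjusted p = 3.59e-04) and with siRNA A by 0.94 (adjusted p = 0.00487), and TP73, a factor of the stress and developmental responses, fell with siRNA A by 1.52 (adjusted p = 8.25e-06). STAT3, a factor that acts on BCL2L1, was added after its values were seen: it fell by 0.61 (adjusted p = 5.37e-04) and by 0.58 (adjusted p = 0.00139).

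Kinases and adaptors of the BAD and BIM proteins had 5 of 11 higher and 4 lower with siRNA A, and 4 higher and 3 lower with siRNA B. These counts stand beside 51.4% and 34% of all genes called. On library totals the counts were 2 higher and 5 lower with siRNA A, and 0 higher (2 at an unadjusted p under 0.05) and 4 lower with siRNA B. AKT1, a kinase that phosphorylates BAD, fell with both, by 0.99 (adjusted p = 9.87e-06) and 1.32 (adjusted p = 2.87e-06). Its CPM as deposited, without the TMM correction, were 139 to 167 in control, 56.8 to 59.4 with siRNA A and 48.9 to 54.8 with siRNA B. DYNLL2, a dynein light chain, fell with siRNA A by 1.07 (adjusted p = 0.00489) and was lower there than with siRNA B (−1.09, adjusted p = 0.00691). PPP3CA, the catalytic subunit of calcineurin, fell with siRNA B by 0.53 (adjusted p = 0.00214).

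**Figure D5:**
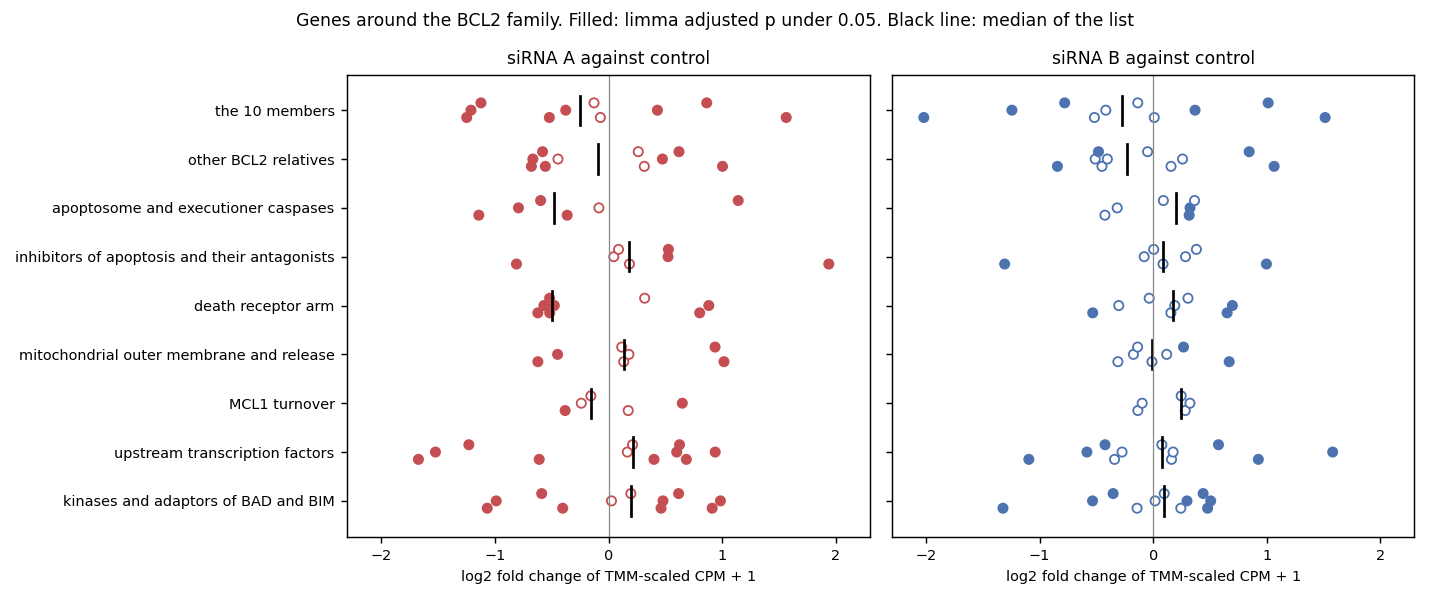
Log2 fold change against control of each tested gene of the listed groups, with siRNA A on the left and siRNA B on the right; filled points passed limma at an adjusted p under 0.05, open points did not, and black lines are list medians. The apoptosome and death receptor lists have medians below 0 with siRNA A and, on this scale but not on library totals (−0.0026 and −0.03), above 0 with siRNA B.

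The genes whose pattern over the 9 libraries was nearest to a member were sought among 10667 genes, by the root mean square difference of log2 ratios to the control mean. For BAD they were LAMTOR1 (0.232), KCNH2 (0.241) and POLR2I (0.258). For PMAIP1 they were FTH1 (0.124), BEST1 (0.182) and CLK1 (0.185), of which FTH1 and BEST1 overlap in the annotation and may share reads. For BAK1 they were STX3 (0.124), ZNF587B (0.131) and SLC45A4 (0.133). These are likenesses of pattern in 9 libraries that share their library effects.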

How the data were processed

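RNA-seq was read as deposited: the authors supplied 1 table of CPM (reads scaled to a common total) for 15354 genes in 9 libraries, made by division by the library total. All values (100%, within 1e-06 of a read) were whole multiples of 1 read, so reads and totals were recovered, and 244 rows were 0 in all libraries. The submitters' processing notes name TopHat2, HTSeq and GRCh37 (hg19), without their roles; the use of strand was not given in the sources used here. Identifiers were matched to the GENCODE annotation on GRCh37 (14871 of 15354). All gene coordinates are from it, those of upstream windows from RefSeq on GRCh38.p14.

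Tests for counts had been planned as an option. As the table held CPM, limma was fitted to log2(TMM-scaled CPM + 1) of the 13893 genes that reached 1 CPM in 3 or more libraries, over all 9 libraries with a mean per group, and p-values were adjusted over all genes (Benjamini-Hochberg, threshold 0.05). Folds on this scale understate changes of low genes. Mean TMM factors were 1.14 (control), 0.886 (siRNA A) and 0.988 (siRNA B). On library totals alone the median of all genes shifts to −0.34 for siRNA A, −0.18 for siRNA B and −0.15 between them, so changes are relative to the TMM scale. The edgeR quasi-likelihood test on the recovered reads called 7160, 4780 and 5105 genes for siRNA A, siRNA B and siRNA A against siRNA B, where limma called 7145, 4719 and 5155. The limma fit was tested on simulated data for siRNA A against control. The edgeR, DESeq2, replicate-block and leave-out fits were not tested in this way.

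Members and lists were chosen with earlier results of these data known. Named were the 10 members, in each list the 2 genes with the largest absolute change among those called, the 3 genes nearest to each of the 3 members with the largest changes, SNHG5, and STAT3, chosen after its values were seen. Some genes that this rule names are not reported here. The 5 pairs of members were listed with them. Libraries of a group correlated across genes at r = 0.983 to 0.994 and differed by more than sampling noise. Same-numbered libraries of control and siRNA A deviated together to differing degrees (correlations 0.65, 0.41 and 0.13). The labels give no pairing, so whether these numbers pair was not settled. The replicate block changed no call of a member there. A level of 3 reads was the floor, and counting errors cover counting only, since reads carried no molecular identifiers. Python 3.11.15, R 4.3.3, edgeR 4.0.16, DESeq2 1.42.0, limma 3.58.1, numpy 2.4.6, pandas 2.3.3 and matplotlib 3.10.9 were used.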

Additional observations from a re-analysis of the deposited data

Results flagged for a closer look

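The response to siRNA A and the response to siRNA B, each against the same control libraries, differed in 4 members by a direct test between the siRNA groups (limma, adjusted p under 0.05), a share near the 37.1% of all genes called. The log2 difference, siRNA A minus siRNA B, was 0.65 for BCL2L1 (165 TMM-scaled CPM or less with siRNA B, 234 or more with siRNA A), 0.42 for MCL1, −0.75 for BAX and 0.81 for BAD. The call for MCL1 was lost on library totals (0.26, adjusted p = 0.153) and without siRNA A replicate 1, siRNA A replicate 3 or siRNA B replicate 2 (0.40, 0.32 and 0.36, adjusted p = 0.0531, 0.0756 and 0.0508). In all 4 the siRNA groups did not overlap on the TMM scale, as for 47.6% of all genes. In CPM as deposited, the siRNA groups overlapped for MCL1.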

How the results depend on the processing

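Of 30 member results (10 members in 3 comparisons), 14 kept their direction and their side of the threshold under all 18 alternatives, and of 537 values 482 did so, while 19 lost a call, 14 gained one and 22 changed sign. None of the values that changed sign was called. On library totals alone the share of called genes that were higher went from 46.4% to 16.1% for siRNA A, from 46.0% to 18.8% for siRNA B and from 47.6% to 27.4% between the siRNAs. On library totals 7 members were lower with siRNA A in place of 5, and 2 higher in place of 3. The number of members lower with siRNA B was 5 on library totals and 5 with the replicate block, in place of 3, as BCL2 and BCL2L11 then passed. The number of members lower with siRNA A than with siRNA B was 2 in place of 1 on library totals, with at least 5 CPM, with DESeq2 and with the replicate block, each time through BCL2L11; BCL2 gave no value with at least 5 CPM. Leaving out 1 library gave 3 to 5 members lower with siRNA A (3 without control replicate 2 or siRNA A replicate 3), 3 to 5 lower with siRNA B (5 without siRNA B replicate 2) and 1 to 2 lower with siRNA A than with siRNA B (2 without control replicate 1 or siRNA A replicate 2). It gave 6018 to 7679, 3471 to 4938 and 4009 to 5124 genes called in the 3 comparisons, against 7145, 4719 and 5155. In fits that leave 2 libraries in a group the spread is pooled over all groups.

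The sign changed for BAK1 between the siRNAs (0.013 with DESeq2 size factors, −0.19 to 0.12 leaving out 1 library), for BID between the siRNAs (−0.089 on library totals, −0.067 to 0.16 leaving out 1 library), for MCL1 with siRNA B (−0.20 on library totals, −0.0030 with at least 5 CPM, −0.046 to 0.088 leaving out 1 library) and for PMAIP1 between the siRNAs (−0.11 on library totals, −0.085 to 0.19 leaving out 1 library). It also changed on leaving out 1 library for BBC3 (−0.35 to 0.10) and BCL2 (−0.21 to 0.036) between the siRNAs and for BID with siRNA A (−0.20 to 0.024). The cause was not tested.

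Deviations of siRNA B libraries correlated with those of the same number at 0.17, 0.44 and −0.39 for control and at 0.20, 0.44 and 0.02 for siRNA A. In each, 3 of 6 libraries were nearest to their own number, and with siRNA A and control it was 6 of 6. These values do not settle whether the numbers pair. The replicate block gave 8093, 5791 and 6229 called genes. With the block, BCL2 (adjusted p = 0.0489) and BCL2L11 (adjusted p = 0.0163) passed with siRNA B, BCL2L11 passed between the siRNAs (adjusted p = 0.00641), and the other member calls did not change. Depth limits BCL2, with 16 to 70 reads per library.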
